A study of Homo sapiens with 10 samples.

Results

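NRG1 with 8 further genes of the ErbB growth factor system was followed through the transcriptome of HCT116 cells, a human colorectal carcinoma line. The 9 genes are 6 ligands (NRG1, AREG, EREG, TGFA, HBEGF and BTC) and 3 receptors (EGFR, ERBB2 and ERBB3), matched by their Ensembl identifiers among the 58050 genes of the deposited table. NRG1 was selected on its difference between the same groups that are compared here, and the other genes were added as its relatives, so the 9 genes are described without a test of their own. All 9 reached an average of 1 TPM or more across the 10 libraries, as did 13581 genes in all, and these were the genes tested. TPM, the transcript abundance unit of the table, is a level per transcript length, scaled to the same total in every library.

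The libraries were made from 5 cultures of HCT116-WT cells and 5 cultures of HCT116-CD276KO cells, all grown in McCoy's 5A medium with fetal calf serum. HCT116-CD276KO cells had been electroporated with Cas9 protein and a guide RNA against CD276, a surface protein of the B7 family, and they came from 1 single cell clone. A difference between the groups is therefore a difference between this clone and the HCT116-WT cells, in which the loss of CD276 and the history of the clone cannot be told apart. The labels do not say whether HCT116-WT cells were electroporated with a scrambled guide. The comparison asks which genes differ in level when CD276 is disrupted in these tumor cells.

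ErbB receptors are tyrosine kinases that pair with each other when a ligand binds. AREG, EREG, TGFA, HBEGF and BTC bind EGFR, some of them also ERBB4, whereas NRG1 binds ERBB3 and ERBB4. ERBB2 has no known ligand of its own and is the favoured partner of the other receptors, and ERBB3 has a weak kinase and signals through its partner, mainly to phosphoinositide 3-kinase. Most of the ligands are made as membrane-bound precursors and are released by metalloproteinases. In the intestine, ligands of EGFR support growth and repair of the epithelium, and AREG and EREG are often abundant in colorectal carcinoma.

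CD276 itself lay at 49.3, 42.0, 53.6, 38.1 and 43.3 TPM in the HCT116-WT libraries and at 4.40, 7.42, 5.79, 4.79 and 4.89 TPM in the HCT116-CD276KO libraries. The groups did not overlap, as the labels of all 10 libraries have it, and 12.1% of the HCT116-WT mean remained. The epithelial markers EPCAM, KRT8 and KRT18 were above 187 TPM in every library, whereas VIL1, an intestinal marker, did not exceed 0.05 TPM. EPCAM, KRT8 and KRT18 were lower on average in HCT116-CD276KO libraries, with log2 differences of -0.35, -0.42 and -0.39. The groups did not overlap for KRT8 and KRT18 and overlapped for EPCAM. CDH1, which codes for E-cadherin, spanned 34.6 to 47.9 TPM in HCT116-WT and 14.3 to 29.2 TPM in HCT116-CD276KO libraries. Of 8 markers of other cell types, HBB was listed at 0 in all libraries and PTPRC, COL1A2, PECAM1, VWF and ALB stayed at or below 0.5 TPM. CD68 spanned 6.01 to 14.8 TPM and COL1A1 4.54 to 8.84 TPM. Libraries differed in how values moved with transcript length and GC content. HCT116-CD276KO replicates 2 and 3 had the most negative Spearman correlations between the deviation of a gene from its mean and its length, at -0.517 and -0.489, against -0.0942 to 0.425 in the HCT116-WT libraries. With GC content in place of length, the highest correlations were 0.607 in HCT116-WT replicate 3 and 0.484 in HCT116-CD276KO replicate 2. The other libraries lay between -0.343 and 0.0229.

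The start sites of AREG, EREG and EGFR are shown because these are the most abundant ligands of the set and the receptor that both bind. The sequences are the 100 bases upstream of the first start site in RefSeq on GRCh38.p14, plus strand, 5′ to 3′. They lie at chr4:74445036-74445135 for AREG, chr4:74365045-74365144 for EREG and chr7:55018917-55019016 for EGFR. Capitals mark matches to TATAAA, the element bound by the TATA-binding protein, to the cyclic AMP response element TGACGTCA, or to the Sp-family site GGGCGG, each searched on both strands.
AREG: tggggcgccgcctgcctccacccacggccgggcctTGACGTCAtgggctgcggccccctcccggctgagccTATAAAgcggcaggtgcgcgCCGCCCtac
EREG: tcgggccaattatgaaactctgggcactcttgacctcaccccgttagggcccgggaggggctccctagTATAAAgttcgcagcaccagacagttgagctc
EGFR: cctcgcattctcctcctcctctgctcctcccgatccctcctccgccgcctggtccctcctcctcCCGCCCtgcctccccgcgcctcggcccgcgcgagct

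AREG and EREG both hold TATAAA close to the start, with its first base 29 and 32 bases upstream, respectively. TATAAA occurs in the 250 bases upstream of 10.7% of 35116 RefSeq start sites. AREG alone of the 3 holds TGACGTCA, which 1.65% of all start sites have. The first EGFR start site lacks both and has 2 matches to GGGCGG within the 250 bases, a motif that 42.6% of start sites have. TGANTCA, the site of AP-1 factors, is present upstream of 6.57% of start sites and of none of these 3 first start sites. A second EGFR start site, at chr7:55109839, has 2 matches each to TATAAA and TGANTCA within the 250 bases. Upstream of the first start sites of the remaining genes, GGGCGG was found 5 times for HBEGF and 3 times for TGFA, TGANTCA 1 time for ERBB2, and none of the 4 motifs for BTC. A match describes the letters of the window and is not a measurement of binding. In all, 7 of the 9 genes had an entry, and those without were NRG1 and ERBB3.

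NRG1 (ENSG00000157168, chromosome 8, positions 31639222 to 32855666, plus strand, hg38), the neuregulin that binds ERBB3, differed most between the groups. It was present at 10.9, 9.10, 9.41, 11.8 and 10.1 TPM in the HCT116-WT libraries and at 0.83, 0.50, 1.01, 0.97 and 0.85 TPM in the HCT116-CD276KO libraries. The lowest HCT116-WT library lay far above the highest HCT116-CD276KO library. The means were 10.2 ± 1.08 and 0.832 ± 0.201 TPM (SD, n = 5 each), so that 8.13% of the HCT116-WT mean remained. On the log2(TPM + 1) scale the difference was -2.62 with a standard error of 0.11. It was the 10th lowest of the 13581 differences, a place that describes how NRG1 was chosen. The added 1 TPM compresses a low level, and the log2 ratio of the means without it was -3.62. The values sum all transcripts of the gene, so isoforms of NRG1 are not distinguished. In bulk RNA, fewer cells with NRG1 transcript and less transcript per cell cannot be told apart.

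Neighboring genes on chromosome 8 were examined because they share the surroundings of NRG1. Of 15 protein-coding genes on both sides, 10 were tested, and their log2 differences spanned -0.28 to 0.04 with a median of -0.18. RBPMS, which codes for an RNA-binding protein, fell from 10.4 to 12.4 TPM in HCT116-WT to 8.67 to 10.2 TPM in HCT116-CD276KO libraries, with a log2 difference of -0.28 and an adjusted p of 0.0480 (limma). This call was lost under 16 of 19 alternative settings. The other 9 did not pass the test, so that 1 of 10 was called lower, beside 4.09% of all genes tested. An unadjusted p under 0.05 was found for 3 of the 10 and for 21.9% of all genes tested.

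The nearest tested genes on the 2 sides of NRG1 were WRN, a DNA helicase, and FUT10, a fucosyltransferase. Both had a log2 difference of -0.21, with a standard error of 0.16 for WRN and 0.14 for FUT10. GTF2E2, a subunit of a general transcription factor, PPP2CB, a catalytic subunit of protein phosphatase 2A, and MAK16, a ribosome assembly factor, had values of -0.18, -0.18 and -0.19. GSR, which regenerates reduced glutathione, was at -0.09 and UBXN8 at 0.04. TTI2 and RNF122 were at -0.12 and -0.14. No neighbor had a difference near the size of that of NRG1.

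**Figure D1:**
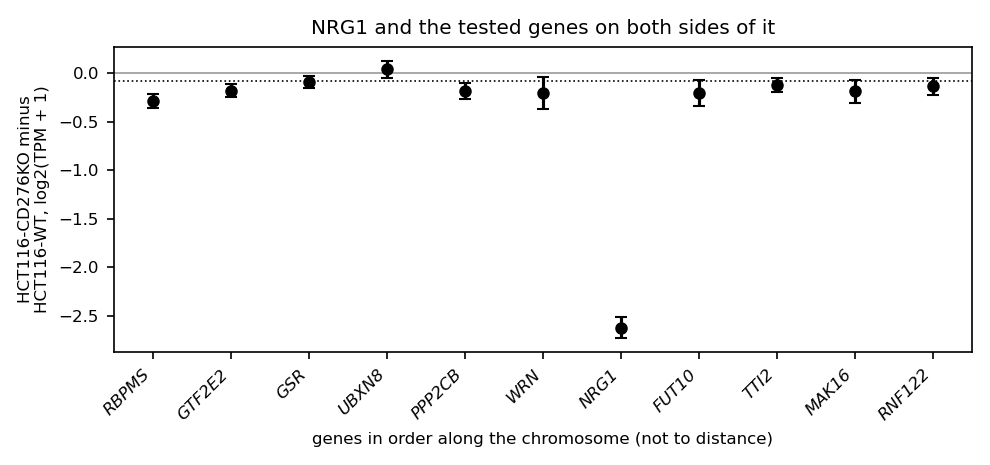
Log2 difference (HCT116-CD276KO minus HCT116-WT, log2(TPM + 1), y axis) of NRG1 and of the 10 tested genes around it in their order along the chromosome (x axis, not to distance). Points are estimates, bars standard errors, and the dotted line is the median of all genes tested. NRG1 is at -2.62 and the 10 neighbors lie between -0.28 and 0.04.

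AREG (ENSG00000109321, chromosome 4, positions 74445136 to 74455005, plus strand) codes for amphiregulin, a ligand of EGFR. Its levels were 331, 313, 280, 343 and 311 TPM in HCT116-WT and 235, 197, 242, 253 and 242 TPM in HCT116-CD276KO libraries. Each HCT116-CD276KO library was below each HCT116-WT library. On the log2 scale AREG differed by -0.43 ± 0.08 (SE), which left 74.1% of the HCT116-WT mean.

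EREG (ENSG00000124882, chromosome 4, positions 74365145 to 74388749, plus strand) codes for epiregulin and lies 56.4 kb before AREG on the same strand. Its levels were 381, 346, 241, 334 and 344 TPM in HCT116-WT and 316, 210, 247, 314 and 343 TPM in HCT116-CD276KO libraries. The groups overlapped, with 1 low HCT116-WT library (replicate 3) and 2 low HCT116-CD276KO libraries (replicates 2 and 3). EREG had a log2 difference of -0.21 ± 0.15 (SE), which was -0.08 after removal of each library's trend with length and GC content and -0.0044 without HCT116-CD276KO replicates 2 and 3. Of the other genes around this chromosome 4 cluster, MTHFD2L, a mitochondrial folate enzyme, and PARM1, a mucin-like protein, were tested, and their log2 differences were 0.0025 and -0.012, neither of which passed.

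TGFA (ENSG00000163235, chromosome 2, positions 70447284 to 70554193, minus strand) codes for transforming growth factor alpha, which binds EGFR. It was measured at 39.4, 36.7, 39.6, 33.2 and 39.7 TPM in HCT116-WT and at 32.7, 22.4, 22.7, 31.1 and 29.2 TPM in HCT116-CD276KO libraries. The groups did not overlap, but the highest HCT116-CD276KO library came within 1 TPM of the lowest HCT116-WT library. For TGFA the log2 difference was -0.45 ± 0.11 (SE). HCT116-CD276KO replicates 2 and 3, the libraries with the strongest negative trend with length, were the lowest. The difference of TGFA was -0.30 ± 0.07 (SE) after removal of each library's trend with length and GC content, where the groups did not overlap. Without these replicates it was -0.27 in the values as deposited.

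HBEGF (ENSG00000113070, chromosome 5, positions 140332843 to 140346603, minus strand) codes for heparin-binding EGF-like growth factor. It was low in both groups, at 4.01, 3.68, 4.61, 5.02 and 5.31 TPM in HCT116-WT and 3.91, 4.06, 3.21, 3.45 and 4.18 TPM in HCT116-CD276KO libraries. BTC (ENSG00000174808, chromosome 4, positions 74744759 to 74794523, minus strand), which codes for betacellulin, was at 2.51, 1.85, 1.66, 1.93 and 2.30 TPM in HCT116-WT and 2.25, 1.35, 2.48, 1.61 and 2.13 TPM in HCT116-CD276KO libraries. Both genes overlapped between the groups. Their log2 differences were -0.21 ± 0.11 and -0.05 ± 0.13 (SE).

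**Figure D2:**
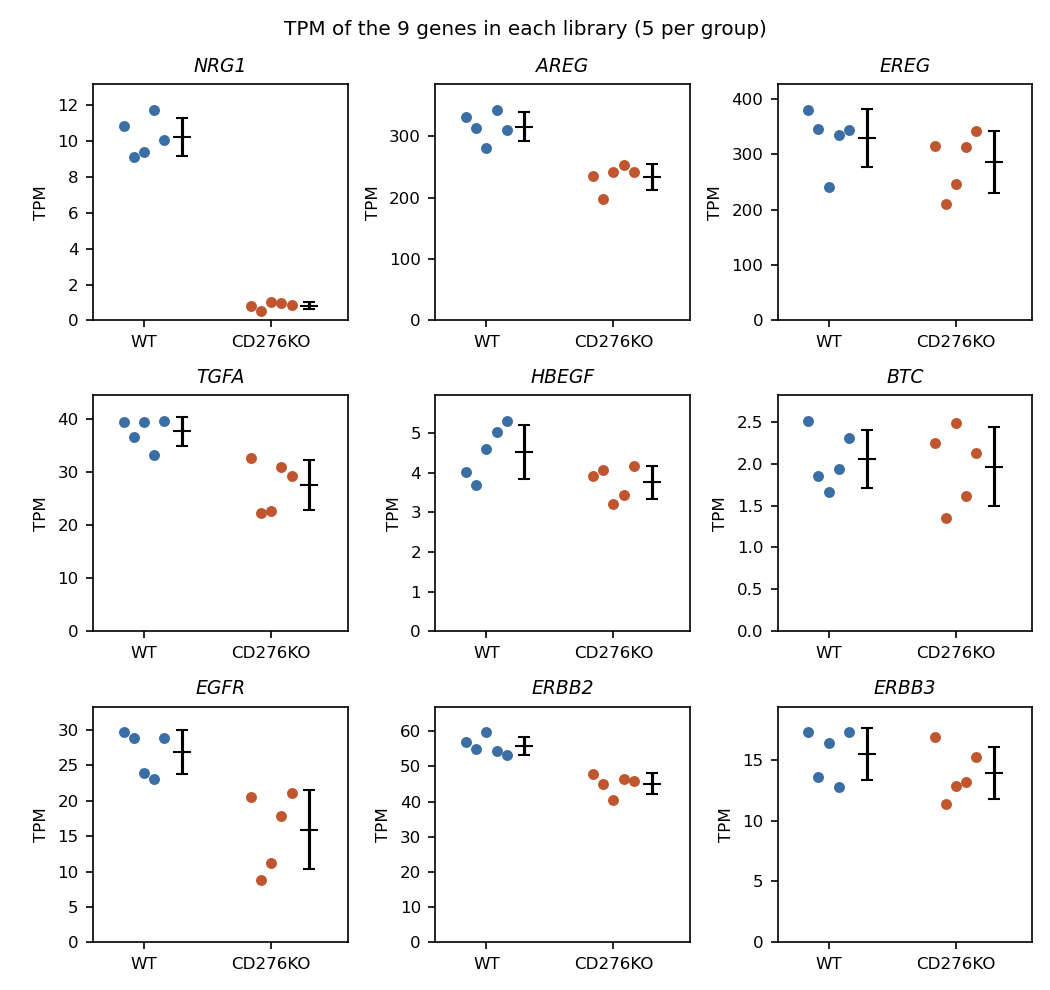
TPM (y axis, each panel starting at 0) of the 6 ligand and 3 receptor genes in 5 HCT116-WT (blue) and 5 HCT116-CD276KO (orange) libraries. Each point is a library and the black marks are mean ± SD. NRG1 is at 9.10 TPM or above in HCT116-WT and at 1.01 TPM or below in HCT116-CD276KO libraries, and EREG, HBEGF, BTC and ERBB3 overlap between the groups.

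AREG and EREG together made up 90.4 to 92.9% of the summed TPM of the 6 ligands in HCT116-WT and 93.3 to 94.3% in HCT116-CD276KO libraries. NRG1 contributed 1.28 to 1.63% in HCT116-WT and 0.115 to 0.195% in HCT116-CD276KO libraries. The sum itself was 699 ± 72.6 TPM in HCT116-WT and 554 ± 77.1 TPM in HCT116-CD276KO libraries (SD, n = 5 each), and its ranges overlapped. NRG1 was thus a small part of the ligand transcripts in both groups, with a different receptor preference from the abundant ligands.

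The family members outside the set were low. EGF spanned 0.19 to 0.73 TPM in HCT116-WT and 0.15 to 0.48 TPM in HCT116-CD276KO libraries, EPGN did not exceed 0.81 TPM, and NRG3 was listed at 0 in all libraries. NRG4, a ligand of ERBB4, ranged from 0.98 to 5.53 TPM in HCT116-WT and from 1.09 to 3.98 TPM in HCT116-CD276KO libraries, with a log2 difference of -0.30 ± 0.32 (SE) that did not pass the test. The receptor ERBB4 was at or below 0.24 TPM in every library. NRG2, which like NRG1 binds ERBB3 and ERBB4, was at 0.40 to 0.61 TPM in HCT116-WT and 0.46 to 1.3 TPM in HCT116-CD276KO libraries. NRG1 and NRG2 together came to 9.67 to 12.2 TPM in HCT116-WT and 1.46 to 1.80 TPM in HCT116-CD276KO libraries. NRG1 exceeded NRG2 in every HCT116-WT library. The ratio of NRG2 to NRG1 was 0.759, 2.60, 0.455, 0.608 and 0.859 in HCT116-CD276KO libraries, so NRG2 was the higher in replicate 2 alone.

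EGFR (ENSG00000146648, chromosome 7, positions 55019017 to 55211628, plus strand) was at 29.7, 28.9, 23.9, 23.1 and 28.8 TPM in HCT116-WT and at 20.5, 8.77, 11.2, 17.8 and 21.1 TPM in HCT116-CD276KO libraries. All HCT116-CD276KO libraries were below all HCT116-WT libraries, and replicates 2 and 3 were the lowest. The means were 26.9 ± 3.13 and 15.9 ± 5.58 TPM (SD, n = 5 each). The log2 difference was -0.79 with a standard error of 0.21, the second largest of the 9. The within-group SD of EGFR was 0.391 on the log2 scale, against a median of 0.172 over all genes tested.

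The spread of EGFR moved with the length trend of the libraries. In HCT116-CD276KO replicates 2 and 3, where long transcripts were lowest, EGFR was at 3.29 and 3.61 on the log2(TPM + 1) scale, and it was at 4.42, 4.23 and 4.47 in replicates 1, 4 and 5. After removal of each library's trend with length and GC content the values were 3.70 and 4.00 against 4.30, 4.30 and 4.37, the HCT116-WT libraries lay between 4.55 and 4.74, and the difference was -0.53. Without HCT116-CD276KO replicates 2 and 3, the difference in the values as deposited was -0.42. The direction was kept and the size was smaller in both cases. The standard error was smaller as well, at 0.12 after the correction and 0.10 without these replicates, against 0.21. EGFR passed an adjusted p under 0.05 (limma) after the correction, and not with all libraries as deposited or without these replicates. It was called under 3 of 19 alternatives, the correction and the fits without HCT116-CD276KO replicate 1 or replicate 5.

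ERBB2 (ENSG00000141736, chromosome 17, positions 39687914 to 39730426, plus strand) was the most abundant receptor. It was at 57.0, 54.9, 59.8, 54.3 and 53.3 TPM in HCT116-WT and at 47.9, 45.1, 40.3, 46.5 and 45.8 TPM in HCT116-CD276KO libraries. The groups did not overlap and the spread within each was small. The log2 difference was -0.30 ± 0.06 (SE), and -0.15 after the correction for length and GC content. GRB7, an adaptor gene 7.5 kb downstream of ERBB2, had the same difference of -0.30 and did not pass the test.

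ERBB3 (ENSG00000065361, chromosome 12, positions 56076799 to 56103505, plus strand), the receptor for NRG1, was at 17.2, 13.6, 16.3, 12.7 and 17.3 TPM in HCT116-WT and at 16.8, 11.4, 12.8, 13.2 and 15.2 TPM in HCT116-CD276KO libraries. The groups overlapped over most of their ranges. ERBB3 had a log2 difference of -0.14 ± 0.12 (SE), and 0.05 after the correction for length and GC content. The receptor of NRG1 thus differed by less than the spread between libraries while NRG1 itself was lower in each HCT116-CD276KO library.

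**Figure D3:**
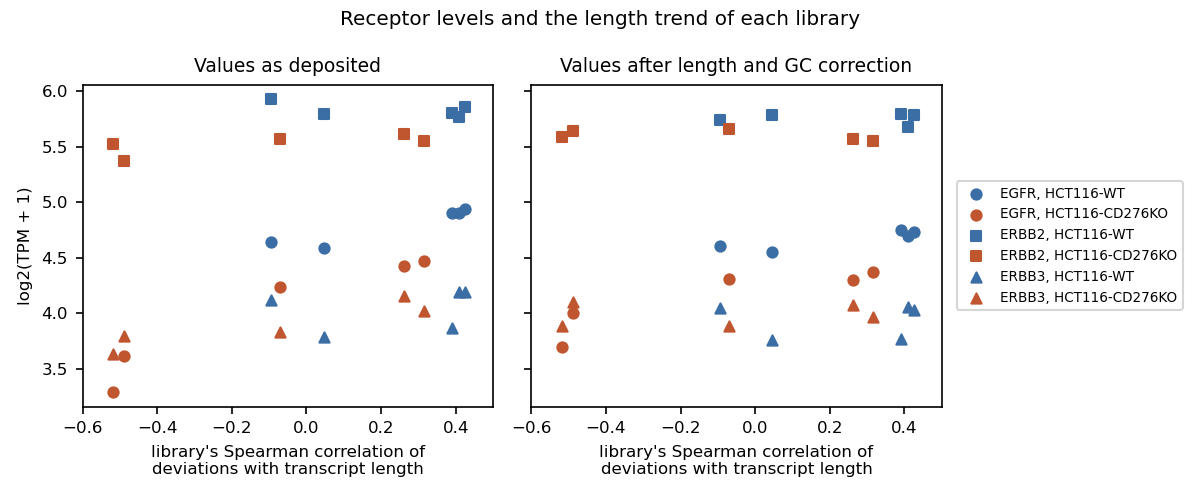
Level of EGFR (circles), ERBB2 (squares) and ERBB3 (triangles) on log2(TPM + 1) (y axis) in HCT116-WT (blue) and HCT116-CD276KO (orange) libraries against each library's Spearman correlation between gene deviations and transcript length (x axis, no unit), as deposited (left) and after removal of the length and GC trend (right). The 2 leftmost libraries are HCT116-CD276KO replicates 2 and 3, where EGFR is at 3.29 and 3.61 before and 3.70 and 4.00 after correction.

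The order of the levels differed between the groups at NRG1, and EGFR stood apart from ERBB3 in HCT116-WT libraries alone. In HCT116-WT libraries EREG and AREG came first and were not distinguished, as EREG was higher in 3 of 5 libraries. ERBB2, TGFA, EGFR, ERBB3, NRG1, HBEGF and BTC followed, and each was above the next in 5 of 5 libraries with no overlap of the ranges. In HCT116-CD276KO libraries EREG was above AREG in 5 of 5 libraries, though their ranges overlapped. EGFR and ERBB3 were not distinguished there, with EGFR higher in 3 of 5 libraries. It was below ERBB3 in replicates 2 and 3, the libraries with the strongest negative trend with length. The EGFR to ERBB3 ratio was 0.771 and 0.872 in these and 1.22 to 1.39 in replicates 1, 4 and 5, beside 1.47 to 2.13 in HCT116-WT libraries. NRG1 was last in HCT116-CD276KO libraries, below BTC in 5 of 5. The ERBB2 to EGFR ratio was 1.85 to 2.5 in HCT116-WT and 2.17 to 5.14 in HCT116-CD276KO libraries, and the highest value was that of replicate 2.

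All 9 genes had a log2 difference below 0, with a median of -0.30. Over all genes tested the median was -0.09, and 68.1% of the differences were below 0. The 9 were called lower in 4 cases (NRG1, AREG, TGFA and ERBB2) at an adjusted p under 0.05, beside 4.09% of all genes tested, and NRG1 alone was also past 2-fold, beside 0.464%. The groups did not overlap for 5 of the 9, with EGFR added to these 4, beside 6.19% of all genes tested with HCT116-CD276KO below HCT116-WT. As NRG1 was chosen on this contrast, nothing is read from these counts. Over all genes, 556 were lower and 106 higher, which became 389 and 191 with median-of-ratios scaling, 385 and 253 with quantile normalization, and 699 and 600 after the correction for length and GC content.

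Scaling changed the smaller differences of the set. The median of all genes moved from -0.09 to 0.0015 with median-of-ratios scaling and to 0.0073 with quantile normalization. BTC was then at 0.02 and 0.03, respectively, and ERBB2 at -0.21 with either scaling. NRG1, AREG, EREG, TGFA, HBEGF, EGFR and ERBB2 were below 0 under every alternative run for them, EREG by as little as -0.0044, whereas BTC and ERBB3 changed sign under some. NRG1 and AREG were called under all 19 alternatives. ERBB2 was not called under 5 of 19 and TGFA not under 12 of 19, among them 9 of the 10 that left out 1 library. As NRG1 was chosen on this contrast, its repeated call reflects that choice and adds no support.

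**Figure D4:**
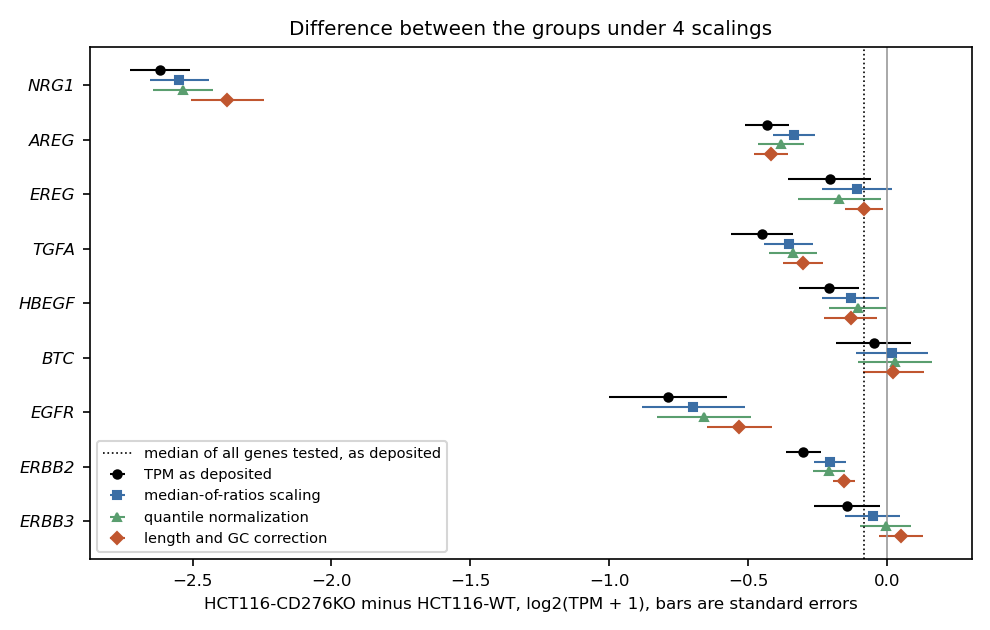
Log2 difference (HCT116-CD276KO minus HCT116-WT, x axis) of the 9 genes (y axis) in the values as deposited and under 3 other scalings. Points are estimates, bars standard errors, and the dotted line is the median of all genes tested as deposited. NRG1 lies between -2.62 and -2.37, EGFR between -0.79 and -0.53, and BTC and ERBB3 reach 0 or above under at least 1 scaling.

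The genes through which these ligands and receptors act were followed in 6 lists, ordered by role. Of 102 genes, 91 were tested, of which 1 fell (EPS8) and 1 rose (ARAF), beside 4.09% lower and 0.781% higher of all genes tested. An unadjusted p under 0.05 was given to 22 of the 91, a share near the 21.9% of all genes tested, none was past 2-fold, and the median log2 difference was -0.14, beside -0.09 over all genes. Below 0 were 82 of the 91, beside 68.1% of all genes tested. Both hold for the values as deposited, and with median-of-ratios scaling the median of all genes tested was 0.0015. The correction for length and GC content gave 10 calls among the 91, with 7 lower and 3 higher. Beside them, 699 were lower and 600 higher of all 13472 genes in that fit. The lower were EPS8, CD44, STAM, GRB7, RAB5A, PIK3R1 and SH3KBP1, and the higher were ARAF, EPN1 and SOCS5.

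EPS8, a substrate of EGFR that links it to actin and to endocytosis, was at 54.9, 53.0, 49.1, 48.7 and 57.2 TPM in HCT116-WT and at 36.5, 24.0, 30.3, 30.4 and 37.1 TPM in HCT116-CD276KO libraries. The groups did not overlap. The log2 difference was -0.73 ± 0.11 (SE), with an adjusted p of 0.00309 (limma). The call was kept under all 19 alternatives, with differences between -0.79 and -0.59. It was the only called gene among 15 tested of the endocytosis and sorting list, in which RAB11A, a recycling GTPase with the highest mean of the list, had a difference of -0.10 that did not pass.

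ARAF, a kinase that relays signals from RAS to MEK, was at 19.1, 16.3, 19.7, 16.6 and 15.4 TPM in HCT116-WT and at 22.5, 23.8, 21.8, 21.5 and 21.9 TPM in HCT116-CD276KO libraries. All HCT116-CD276KO libraries were above all HCT116-WT libraries. The log2 difference was 0.35 ± 0.08 (SE), with an adjusted p of 0.0283 (limma), and the call was lost under 8 of 19 alternatives. In the same list of adaptors and relay kinases, 33 of 34 tested genes did not pass. GRB2, the adaptor that couples receptors to RAS and the most abundant of the list, had a difference of -0.07 ± 0.07 (SE).

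Under the main settings no gene passed among 11 tested for ligand processing, 21 negative regulators and 9 partners and chaperones. An unadjusted p under 0.05 was found for 3 in each of these lists, beside 21.9% of all genes tested. Under alternatives, RHBDF2 was called without HCT116-CD276KO replicate 1, LRIG3 with a replicate block, and SOCS5 and CD44 after the length and GC correction. LRIG3 had the lowest difference of the negative regulators, -0.51, with an adjusted p of 0.0712 (limma). ADAM9, a metalloproteinase and the most abundant gene of ligand processing, had a difference of -0.28 ± 0.14 (SE). ERRFI1, a feedback inhibitor that binds the kinase domain of EGFR, spanned 425 to 483 TPM in HCT116-WT and 300 to 438 TPM in HCT116-CD276KO libraries, with a difference of -0.30 ± 0.11 (SE) and an adjusted p of 0.138 (limma). HSP90AB1, a chaperone of ERBB2 among many clients, was at -0.07 ± 0.06 (SE).

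**Figure D5:**
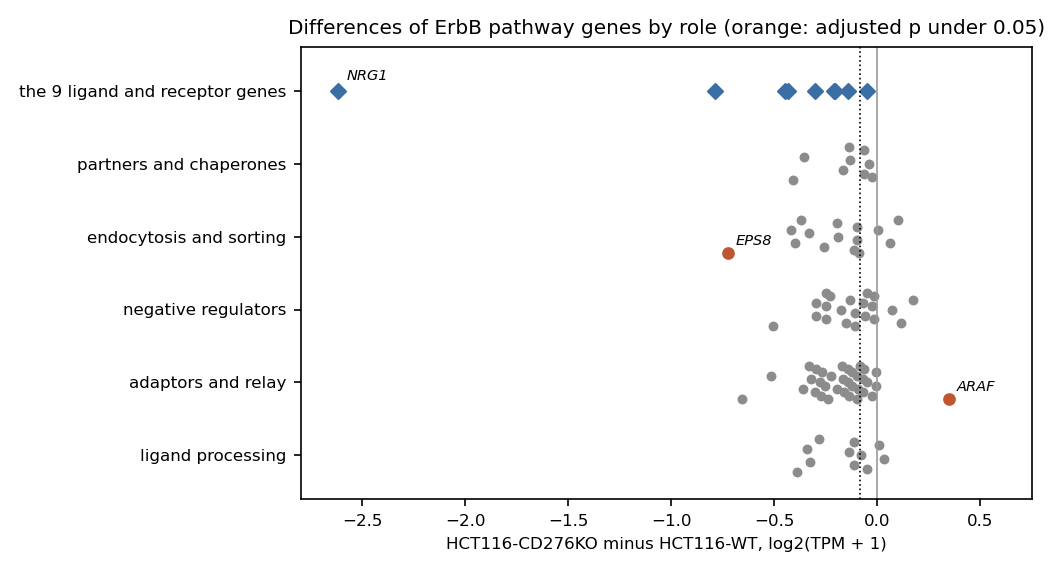
Log2 difference (HCT116-CD276KO minus HCT116-WT, log2(TPM + 1), x axis) of the tested genes of 5 pathway lists by role (rows, position within a row only separates points) and of the 9 ligand and receptor genes (blue diamonds, not colored by the test). Orange points passed an adjusted p under 0.05 (EPS8 at -0.73 and ARAF at 0.35), and the dotted line is the median of all genes tested, -0.09.

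The genes whose profile over the 10 libraries was most like that of NRG1 were ranked by the root mean square distance between the log2(TPM + 1) values, each taken relative to the gene's HCT116-WT mean. Among the 5 nearest were IL32, a cytokine, at a distance of 0.220, GALNT3, which starts mucin-type O-glycosylation, at 0.282, CD276 at 0.344 and KRT7, a simple epithelial keratin, at 0.460. IL32 spanned 4.73 to 6.58 TPM in HCT116-WT and 0 to 0.32 TPM in HCT116-CD276KO libraries, GALNT3 5.10 to 8.49 and 0.29 to 0.78 TPM, and KRT7 10.5 to 13.8 and 1.39 to 3.48 TPM. As the measure follows the size of the difference between the groups, it lists genes with a difference of about the same size, and it is a description over 10 libraries of 2 groups.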

How the data were processed

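Polyadenylated RNA of 5 HCT116-WT and 5 HCT116-CD276KO cultures was sequenced by the authors as strand-specific single reads, mapped to GRCh38 with STAR 2.5.2b and quantified with RSEM 1.3.0 and featureCounts 1.5.1. The authors deposited the result as TPM, which keep no counts, so the depth of each library could not be read from the values and no counting interval is given. Which program gave the TPM is not given in the sources used here.

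Genes averaging 1 TPM or more were compared on log2(TPM + 1) in limma 3.58.1 (R 4.3.3), with a trended empirical Bayes variance and Benjamini-Hochberg adjustment over 13581 genes. The procedure was tested on simulated data with independent noise in each gene and library. These data lack the libraries' trends with length and GC content, so the test does not cover them. Length and GC content came from the canonical transcript of GENCODE 44 (hg38), which also gave positions, and their trend was removed per library by local regression (span 0.3, 13472 genes). p-values measure the spread between cultures of 1 clone and of HCT116-WT cells.

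The 9 genes and the lists were chosen with earlier results of these data known. Named were the 9 genes, CD276, other EGF family genes, called genes and the most abundant gene of each list, tested neighbors of NRG1 and the 5 genes of nearest profile, of which 1 is not reported here. GRB7, LRIG3, RHBDF2, the genes called after correction and the neighbors of the EREG and AREG cluster were named after their values were seen. Alternatives were a pseudocount of 0.1, other filters (above 0 or at least 5 TPM), median-of-ratios scaling, quantile normalization, the length and GC correction, a replicate block, robust hyperparameters, each library left out, a ratio of means without a pseudocount and, chosen after seeing the data, both HCT116-CD276KO replicates 2 and 3 left out.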

Additional observations from a re-analysis of the deposited data

How the results depend on the processing

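The difference of NRG1 was -3.50 with a pseudocount of 0.1 TPM, -2.37 after the length and GC correction and -3.62 as a ratio of means. That of ERBB2 was -0.21 with median-of-ratios scaling, -0.21 with quantile normalization and -0.15 after the length and GC correction. EREG was at -0.11 with median-of-ratios scaling, -0.10 without HCT116-CD276KO replicate 2 and -0.31 without HCT116-WT replicate 3. BTC lay between -0.11 and 0.03 and ERBB3 between -0.21 and 0.05. The number of all genes called, 662, became 1299 with the length and GC correction, 339 without HCT116-CD276KO replicates 2 and 3, and 343 to 857 with 1 library left out. Genes also past 2-fold, 66, became 112 with a pseudocount of 0.1 and 40 at a mean of at least 5 TPM. Of the 9 genes, 4 were called, which became 2 without HCT116-CD276KO replicates 2 and 3 and 2 to 5 with 1 library left out. The lowest came without HCT116-WT replicate 1, which left NRG1 and AREG, and the highest without HCT116-CD276KO replicate 1, which added EGFR. TGFA was called in that fit alone of the 10 that left out 1 library, and not with all genes above 0 TPM. Called pathway genes, 2, became 10 with the length and GC correction, 1 without HCT116-CD276KO replicates 2 and 3, and 1 to 5 with 1 library left out. They were 1 without HCT116-WT replicates 2, 4 or 5 or HCT116-CD276KO replicates 2, 3 or 4, where ARAF was lost, 4 without HCT116-WT replicate 3 and 5 without HCT116-CD276KO replicate 1. Called neighbors of NRG1, 1, became 0 with all genes above 0 TPM, a mean of at least 5 TPM, median-of-ratios scaling, quantile normalization, the length and GC correction, the robust variance model, and without HCT116-CD276KO replicates 2 and 3, and 0 to 2 with 1 library left out. The cause of these changes was not tested.

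Replicate numbers did not pair the libraries. Deviations of same-numbered libraries correlated at -0.181 to 0.119, and 1 of 5 HCT116-WT libraries correlated best with its own number. With a replicate block, 378 genes were called in all, with 2 of the 9 genes (NRG1 and AREG), 2 pathway genes (EPS8 and LRIG3) and 0 neighbors of NRG1.

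Without counts, a level near 0 TPM, as for NRG1 in HCT116-CD276KO libraries, has no known counting error. Of 26 groups of 5 values examined for a library far from the others, over 13 genes, 0 were past the limit of 0.71.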
